A study of Sus scrofa with 20 samples.

Results

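Genes that mark or act in stellate cells, pericytes and fibroblasts were described across the sorted cell groups of a pig RNA-seq series: PDGFRA, PDGFRB, CSPG4, RGS5, HGF, RELN, POSTN, THY1, NT5E and LHX2. They were chosen by name and are 10 of the 25764 genes of the table. All 10 had a row, and all 10 were among the 15576 genes that passed the filter on low values (10 normalized counts or more in 2 or more libraries). The series held 20 libraries in 6 groups from neonatal piglets. Porcine biliary tree stem cells (pBTSCs, 5 libraries) were labelled gallbladder, and the other 5 groups were labelled liver and named by the surface antigens of the sort: CD45-/EpCAM+ (4 libraries), CD45-/EpCAM- (2), CD45+ (5), CD31+ (2) and CD146+ (2). According to the methods, pBTSCs came from the gallbladder and the bile ducts outside the liver, and the immunoselection of stem and progenitor cells reduced mature mesenchymal cells. The paper defines biliary tree stem cells by the same antigens as the CD45-/EpCAM+ liver sort. The selected cells then formed organoids over some hours in low attachment dishes, which held early mesenchymal cells, among them precursors of endothelial and stellate cells, beside the stem cells. The methods give these steps for stem and progenitor cells of biliary tree and liver. Whether each liver sort went through them was not stated. Tissue differs between pBTSCs and the liver sorts, and it cannot be told apart from any difference in preparation. No treatment was applied to any group. The pBTSC libraries S2, S7 and S11 came from piglets of an H2B-GFP line and S15 and S20 from wild-type piglets, and the piglet line of the liver sorts was not given.

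Stellate cells lie between the sinusoidal endothelium and the hepatocytes, store vitamin A, and turn into matrix-producing cells after injury. Pericytes wrap capillaries, and portal fibroblasts lie around the bile ducts. All of these cells receive signals through the PDGF receptors, and in the liver stellate cells are a main source of HGF, the ligand that acts on hepatocytes through the receptor MET.

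Depth was read from the spacing of the low values, since a normalized count is a whole number of reads divided by a factor of the library. The deep libraries, 17 of the 20, held an estimated 21200000 to 77800000 reads, and S22 (CD146+), S13 (CD45-/EpCAM+) and S15 (pBTSCs) held 455000, 801000 and 1570000. In these shallow libraries 3 reads are worth 156, 77.1 and 37.7 normalized counts, against 0.680 to 4.28 in the other 17. The transcript of each sorted antigen overlapped between its own sort and some other liver sort. PTPRC, which encodes CD45, ranged from 424 to 2687 normalized counts in CD45+ and from 1317 to 2850 in CD45-/EpCAM-. EPCAM ranged from 1205 to 1779 in CD45-/EpCAM+ and from 491 to 1090 in CD45-/EpCAM-, but from 1175 to 2232 in CD45+. PECAM1, which encodes CD31, ranged from 20102 to 25291 in CD31+ and from 20655 to 28778 in CD146+. MCAM, which encodes CD146, ranged from 4615 to 5226 in CD146+ and from 3672 to 4751 in CD31+. These are bulk libraries, so fewer cells of a type and less RNA per cell cannot be told apart.

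The first question was which of the 10 genes differ between pBTSCs and the liver sorts. Against the mean of the 5 liver sorts, 7 of the 10 genes passed the test (adjusted p under 0.05 and an absolute log2 fold change over 1). PDGFRA, PDGFRB, CSPG4 and RGS5 were higher in pBTSCs and HGF, NT5E and LHX2 were lower, whereas RELN, POSTN and THY1 did not pass. Of all genes tested, 26.6% passed in this comparison, 16.1% higher and 10.5% lower. The median absolute log2 fold change was 1.23 over the 10 genes and 0.55 over all genes, and the median with its sign was -0.27 over the 10 genes and 0.11 over all genes. Only LHX2 and NT5E had all 5 pBTSC libraries on the same side of all 15 liver libraries, both below, and no member had them all above. Over all genes tested, the pBTSC libraries lay below all liver libraries for 9.21% and above them for 11.9%. Each sort had equal weight in the mean, and the 4 higher genes differed most from CD45-/EpCAM-, a sort of 2 libraries. Against it alone PDGFRA, PDGFRB, CSPG4 and RGS5 were at 2.89, 2.13, 3.62 and 3.57. Against CD31+ they were at 0.89, 0.86, 0.80 and 0.11, and none of them passed. A mean without CD45-/EpCAM- was not tested, and PDGFRB passed against no other single sort. 

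**Figure D1:**
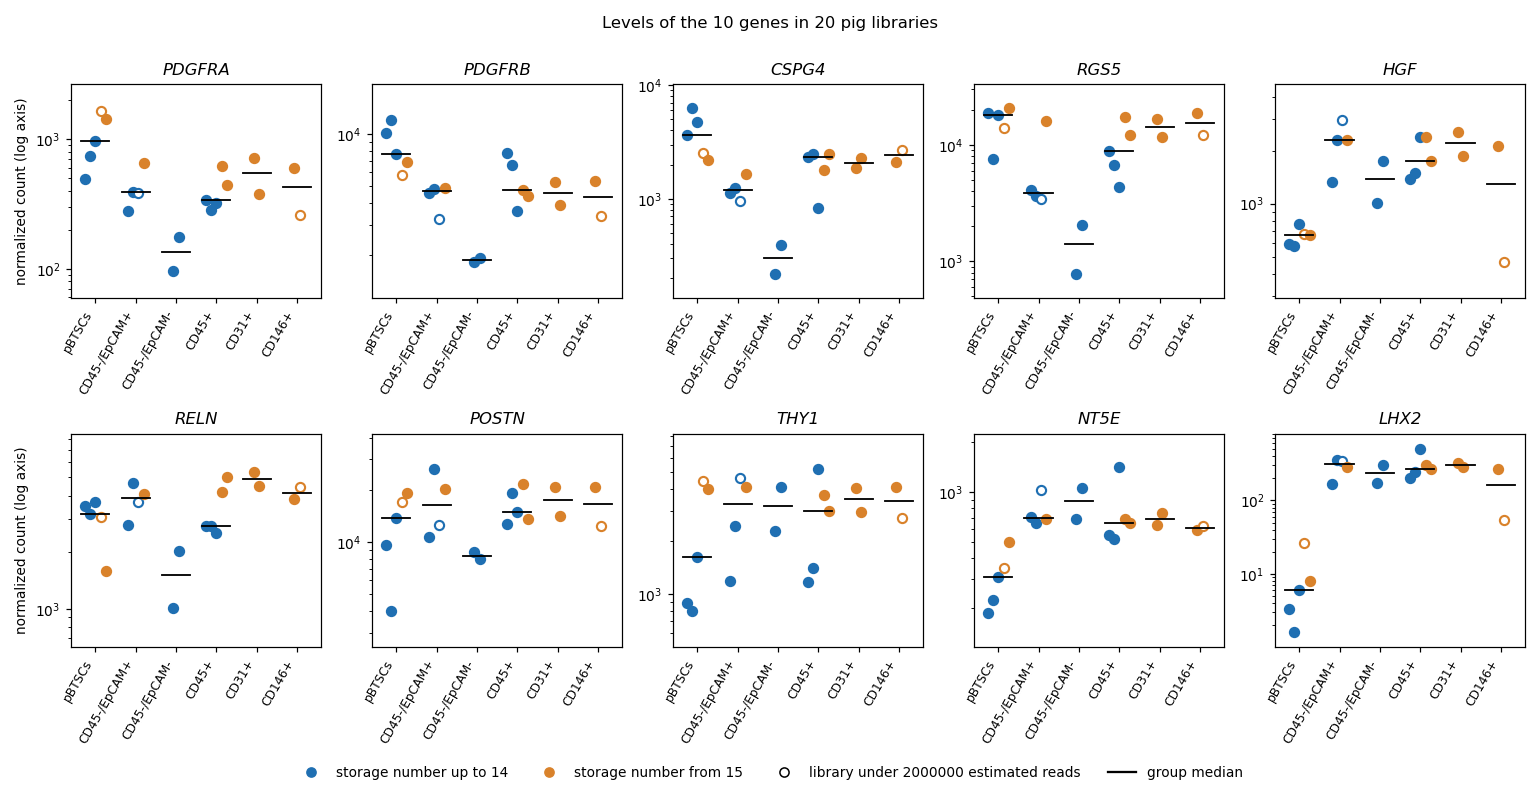
Normalized counts of the 10 genes (log axis) in each of the 20 libraries, grouped by sort, with shallow libraries marked. PDGFRA, PDGFRB, CSPG4 and RGS5 had their highest group median in pBTSCs, and LHX2 lay at 1.62 to 26.3 in pBTSCs and at 54.6 to 511 in the liver. Only LHX2 and NT5E had ranges that did not overlap between pBTSCs and the liver.

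PDGFRA is the receptor tyrosine kinase that marks fibroblasts in many tissues. It was at 496, 737, 962, 1658 and 1446 normalized counts in the pBTSC libraries S2, S7, S11, S15 and S20. In CD45-/EpCAM+ it was at 280, 394, 386 and 653, and in CD45-/EpCAM- at 95.8 and 176. In CD45+ it was at 339, 286, 321, 623 and 443, in CD31+ at 717 and 378, and in CD146+ at 595 and 261. All pBTSC libraries but S2 exceeded every liver library, and S2 overlapped the upper end of the liver range, whose median was 378. PDGFRA was 2.88-fold higher in pBTSCs than in the mean of the liver sorts (log2 fold change 1.53, SE 0.30, adjusted p = 4.20e-04).

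PDGFRB is the receptor that marks pericytes and stellate cells. Its normalized counts in pBTSCs, in the same order of libraries, were 10076, 12097, 7659, 5785 and 6853. The CD45-/EpCAM+ libraries were at 4587, 4842, 3234 and 4864 and the CD45-/EpCAM- libraries at 1815 and 1932. The CD45+ libraries were at 7818, 6619, 3612, 4770 and 4398, the CD31+ libraries at 5289 and 3866 and the CD146+ libraries at 5329 and 3364. Both CD45-/EpCAM- libraries were the lowest of the series, and 2 CD45+ libraries, S3 and S8, reached into the pBTSC range. PDGFRB was 2.15-fold higher in pBTSCs (log2 fold change 1.10, SE 0.19, adjusted p = 1.76e-04), and its log2 fold change fell to 0.96 (adjusted p = 0.00102), under the threshold on size, without the pBTSC library S7.

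CSPG4 encodes NG2, a membrane proteoglycan of pericytes. It was at 3632, 6348, 4744, 2549 and 2184 normalized counts in pBTSCs. Values of 1126, 1257, 951 and 1641 were found in CD45-/EpCAM+ and 216 and 393 in CD45-/EpCAM-. Levels in CD45+ were 2353, 2474, 831, 1808 and 2462, those in CD31+ 1887 and 2281 and those in CD146+ 2105 and 2714. The pBTSC libraries S2, S7 and S11 were above every liver library, S15 lay within the range of CD146+ and above CD45+ and CD31+, S20 lay within the ranges of CD45+, CD31+ and CD146+, and all 5 were above CD45-/EpCAM+ and CD45-/EpCAM-. CSPG4 was 2.84-fold higher in pBTSCs (log2 fold change 1.51, SE 0.27, adjusted p = 1.74e-04).

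RGS5 is a regulator of G protein signalling that is abundant in pericytes and other mural cells. It was at 18879, 7639, 18212, 13927 and 20703 normalized counts in pBTSCs. For CD45-/EpCAM+ the values were 4126, 3656, 3419 and 16208, and for CD45-/EpCAM- 779 and 2048. For CD45+ the values were 8779, 6730, 4313, 17421 and 12058, for CD31+ 16656 and 11641 and for CD146+ 18646 and 12211. The pBTSC library S7 lay far below the other 4, and liver libraries of 4 sorts overlapped the pBTSC range. RGS5 was 2.27-fold higher in pBTSCs (log2 fold change 1.18, SE 0.38, adjusted p = 0.0157), and without the 3 shallow libraries the log2 fold change was 1.10 (adjusted p = 0.0563), which does not pass. 

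HGF, the ligand of MET, was at 591, 575, 763, 675 and 662 normalized counts in pBTSCs. Among the EpCAM sorts it was at 1322, 2281, 2967 and 2297 in CD45-/EpCAM+ and 1001 and 1750 in CD45-/EpCAM-. Of the remaining sorts, CD45+ was at 1369, 1490, 2378, 2382 and 1741, CD31+ at 2540 and 1853 and CD146+ at 2125 and 467. The pBTSC libraries were close together, 14 of the 15 liver libraries lay above all of them, and the exception was the shallow CD146+ library S22, which lay below all of them. HGF was 2.49-fold lower in pBTSCs (log2 fold change -1.32, SE 0.27, adjusted p = 6.19e-04). With the libraries scaled to equal totals the log2 fold change was -0.99 (adjusted p = 0.0101), just under the threshold on size.

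RELN encodes reelin, a secreted glycoprotein that stellate cells of the liver produce. It was at 3502, 3176, 3684, 3089 and 1587 normalized counts in pBTSCs. In CD45-/EpCAM+ it was at 2799, 4684, 3676 and 4102, and in CD45-/EpCAM- at 1005 and 2032. In CD45+ it was at 2744, 2769, 2521, 4194 and 4994, in CD31+ at 5345 and 4495, and in CD146+ at 3836 and 4436. CD31+ and CD146+ were above every pBTSC library, and the pBTSC library S20 was well below the other 4. The log2 fold change of RELN was -0.17 (SE 0.21, adjusted p = 0.542).

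POSTN encodes periostin, a matrix protein of activated fibroblasts that binds integrins. It was at 9577, 3973, 13729, 16947 and 19136 normalized counts in pBTSCs. The CD45-/EpCAM+ libraries were at 10728, 26393, 12496 and 20202 and the CD45-/EpCAM- libraries at 8692 and 7957. The CD45+ libraries were at 12654, 19135, 14823, 21493 and 13580, the CD31+ libraries at 20867 and 14181 and the CD146+ libraries at 20781 and 12405. The groups overlapped, and the pBTSC libraries themselves covered the widest range of any group on the log scale. The log2 fold change of POSTN was -0.37 (SE 0.30, adjusted p = 0.343).

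THY1 encodes CD90, a surface glycoprotein of portal fibroblasts and mesenchymal cells. It was at 897, 804, 1640, 4399 and 3979 normalized counts in pBTSCs. Values of 1194, 2449, 4617 and 4099 were found in CD45-/EpCAM+ and 2307 and 4099 in CD45-/EpCAM-. Levels in CD45+ were 1171, 1411, 5146, 3654 and 2977, those in CD31+ 4025 and 2961 and those in CD146+ 4072 and 2726. The pBTSC libraries were spread apart, with S2 and S7 below every liver library, S11 near the low end of the liver range and S15 and S20 in its upper part. The log2 fold change of THY1 was -0.70 (SE 0.44, adjusted p = 0.197), the widest error among the 9 genes other than LHX2.

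NT5E encodes CD73, the surface enzyme that makes adenosine from AMP. It was at 187, 223, 307, 352 and 500 normalized counts in pBTSCs. For CD45-/EpCAM+ the values were 709, 657, 1028 and 694, and for CD45-/EpCAM- 694 and 1070. For CD45+ the values were 554, 523, 1415, 690 and 649, for CD31+ 632 and 754 and for CD146+ 596 and 626. No pBTSC value reached the liver range, and the smallest gap was that between the pBTSC library S20 and the CD45+ library S8. NT5E was 2.44-fold lower in pBTSCs (log2 fold change -1.29, SE 0.23, adjusted p = 2.15e-04), and with equal totals the log2 fold change was -0.96 (adjusted p = 0.00378), under the threshold on size.

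LHX2 is a LIM homeobox transcription factor that stellate cells express. It was at 3.33, 1.62, 6.01, 26.3 and 8.04 normalized counts in pBTSCs. Among the EpCAM sorts it was at 169, 354, 350 and 286 in CD45-/EpCAM+ and 172 and 307 in CD45-/EpCAM-. Of the remaining sorts, CD45+ was at 203, 242, 511, 300 and 267, CD31+ at 323 and 285 and CD146+ at 271 and 54.6. The highest pBTSC value and the lowest liver value were those of the shallow libraries S15 and S22, each under 3 reads, and among the 17 deep libraries the 4 pBTSC libraries lay at 1.62 to 8.04 and the 13 liver libraries at 169 to 511. LHX2 was 32.4-fold lower in pBTSCs (log2 fold change -5.02, SE 0.45, adjusted p = 8.64e-08). The size rests on the pseudocount of 1, since the log2 fold change was -3.81 with a pseudocount of 10 and -5.28 with 0.1, and it was -5.70 without the shallow libraries.

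**Figure D2:**
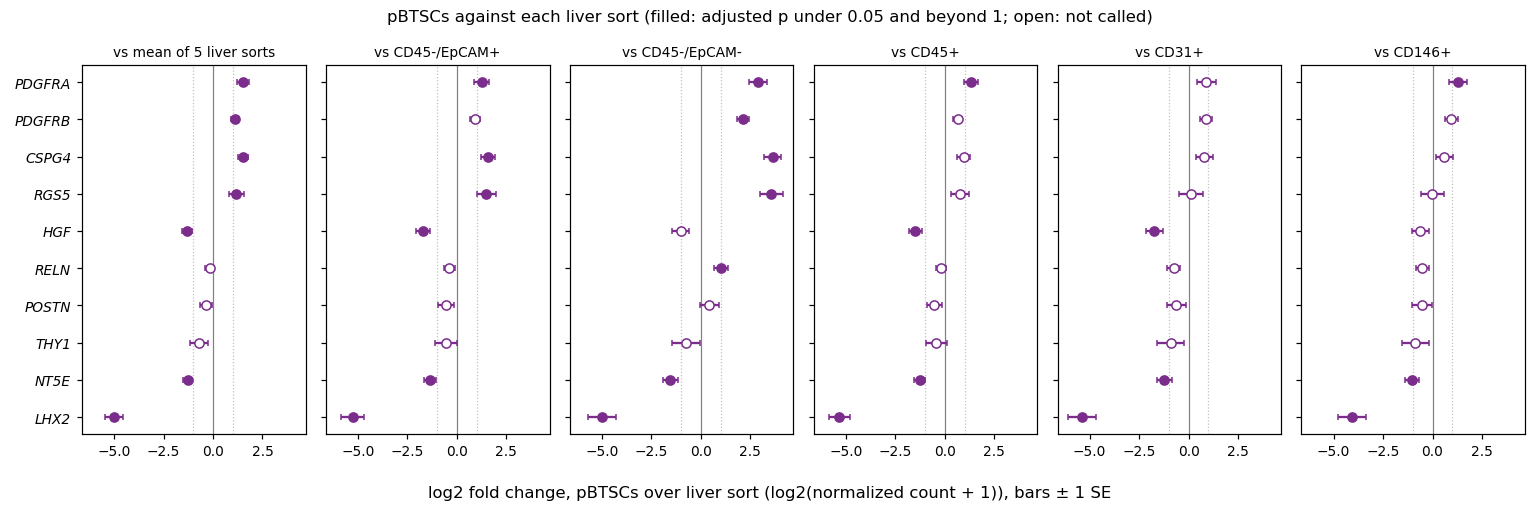
Log2 fold change of each of the 10 genes between pBTSCs and the mean of the 5 liver sorts and between pBTSCs and each sort, from the limma fit over all genes. LHX2 lay between -5.40 and -4.09 against every sort, and CSPG4 and RGS5 ranged from 3.62 and 3.57 against CD45-/EpCAM- to 0.59 and -0.01 against CD146+.

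Ordered by group median, PDGFRA, PDGFRB, CSPG4 and RGS5 were highest in pBTSCs and lowest in CD45-/EpCAM-. For PDGFRA, PDGFRB and RGS5 the only neighbours in this order whose ranges did not overlap were CD45-/EpCAM- and the group above it. For CSPG4 the order was pBTSCs (3632), CD146+ (2409), CD45+ (2353), CD31+ (2084), CD45-/EpCAM+ (1192) and CD45-/EpCAM- (305), with gaps only on either side of CD45-/EpCAM+. RELN was highest in CD31+ (median 4920), above CD146+ (4136) without overlap, and lowest in CD45-/EpCAM- (1518), which was also separate from the group above it. NT5E ran from CD45-/EpCAM- (882) to CD146+ (611) with overlap at each step and then dropped to pBTSCs (307). LHX2 ran from CD45-/EpCAM+ (318) to CD146+ (163), again with overlap at each step, and then to pBTSCs (6.01). HGF, POSTN and THY1 had no neighbours that were separate.

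The same pBTSC libraries enter each comparison with a single sort, so these comparisons are not independent and their values are given side by side. Against CD45-/EpCAM+, 6 members passed, 3 higher and 3 lower, where 25.1% of all genes did (14.8% higher, 10.3% lower). Against CD45-/EpCAM-, 7 members passed, 5 higher and 2 lower, where 36.6% of all genes did (20% higher, 16.6% lower). Against CD45+, 4 members passed, 1 higher and 3 lower, where 20.6% of all genes did (11% higher, 9.54% lower). Against CD31+, 3 members passed, all lower, where 14.4% of all genes did (6.73% higher, 7.62% lower), and against CD146+ 3 members passed, 1 higher and 2 lower, where 22.2% did (14.5% higher, 7.75% lower). CD45-/EpCAM-, CD31+ and CD146+ hold 2 libraries each.

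LHX2 passed against all 5 sorts, with log2 fold changes of -5.27 (CD45-/EpCAM+), -5.00 (CD45-/EpCAM-), -5.33 (CD45+), -5.40 (CD31+) and -4.09 (CD146+). NT5E also passed against all 5, from -1.54 against CD45-/EpCAM- to -1.05 against CD146+ (adjusted p = 0.0428). The NT5E calls against CD31+ (-1.22, adjusted p = 0.0277) and CD146+ were each lost when single libraries were left out, 4 and 9 of the 20 in turn. HGF passed against CD45-/EpCAM+ (-1.71), CD45+ (-1.49) and CD31+ (-1.74, adjusted p = 0.00725, lost without the CD31+ library S16). HGF was at -1.03 against CD45-/EpCAM- (adjusted p = 0.0523) and at -0.62 against CD146+, which became -1.72 (adjusted p = 0.0101) without the shallow libraries and 0.47 without the other CD146+ library, S17.

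PDGFRA passed against 4 sorts, with log2 fold changes of 1.24 (CD45-/EpCAM+), 2.89 (CD45-/EpCAM-), 1.32 (CD45+) and 1.29 (CD146+), and was at 0.89 against CD31+. Its call against CD146+ (adjusted p = 0.0490) was lost on leaving out any of 13 of the 20 libraries, with the log2 fold change falling to 0.70 (adjusted p = 0.634) without S22, and its call against CD45-/EpCAM+ was lost without S4 (1.06, adjusted p = 0.0534). PDGFRB passed only against CD45-/EpCAM- (2.13) and was at 0.65 to 0.95 against the other 4 sorts. CSPG4 passed against CD45-/EpCAM+ (1.56) and CD45-/EpCAM- (3.62, SE 0.42) and was at 0.96 (adjusted p = 0.0270), 0.80 and 0.59 against CD45+, CD31+ and CD146+. RGS5 passed against CD45-/EpCAM+ (1.48, adjusted p = 0.0210) and CD45-/EpCAM- (3.57, SE 0.60) and was at 0.76, 0.11 and -0.01 against CD45+, CD31+ and CD146+. Its call against CD45-/EpCAM+ was lost without S4, S9 or S13. RELN passed only against CD45-/EpCAM- (1.01, adjusted p = 0.0194), and that call was lost without any of 5 libraries, at 0.51 (adjusted p = 0.390) without the CD45-/EpCAM- library S5. POSTN and THY1 passed against no sort.

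Within the liver, the CD146+ sort would hold cells with a surface antigen that endothelial cells and pericytes share. Against the mean of the other 4 liver sorts, none of the 10 genes and 0% of all genes passed with limma, while 3589 genes and 3 members had an unadjusted p under 0.05. With single libraries left out, 0 to 2295 genes and 0 to 1 members passed. The 3 members with an unadjusted p under 0.05 in the fit of all libraries were CSPG4 (log2 fold change 1.14, adjusted p = 0.108), RGS5 (1.49, adjusted p = 0.133) and HGF (-0.87, adjusted p = 0.191). The HGF value rests on S22 and was 0.26 without the shallow libraries. CD45-/EpCAM- and CD45-/EpCAM+ are both labelled CD45- and differ in the EpCAM label, though PTPRC overlapped between CD45-/EpCAM- and CD45+, as given above. CSPG4 (-2.06, adjusted p = 0.0249), RELN (-1.39, adjusted p = 0.0409) and PDGFRB (-1.21, adjusted p = 0.0469) were lower in CD45-/EpCAM-, where 2.8% of all genes passed (0.77% higher, 2.03% lower), a count of 436 that ranged from 0 to 1478 with single libraries left out. PDGFRA (-1.65) and RGS5 (-2.09), each with adjusted p = 0.0638, did not pass. Leaving out single libraries ended the PDGFRB call in 13 cases of 20, the RELN call in 9 and the CSPG4 call in 2 (S5 and S19), and with the fit kept to storage numbers up to 14 no member passed.

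The libraries carry storage numbers, which were split here into a run up to 14 and a run from 15, and values are given by run. The numbers themselves have no gap at the split, which falls where the piglet line of the pBTSCs and the set of liver sorts change. CD45-/EpCAM- was present only in the run up to 14, CD31+ and CD146+ only in the run from 15, and the 3 pBTSC libraries of the first run were those of the H2B-GFP piglets, so run and piglet line cannot be told apart in pBTSCs. The paper gives S2, S7 and S11 lower RNA integrity than S20 and no value for S15, so RNA quality cannot be told apart there either. RGS5 was at 779 to 8779 normalized counts in the 8 liver libraries up to 14 and at 11641 to 18646 in the 7 from 15, without overlap. With the sort in the fit, RGS5 was higher from 15 among the liver libraries by 1.55 on the log2 scale (SE 0.34, adjusted p = 0.0216). It was the only member to pass there, where 3.49% of all genes did. In pBTSCs the 3 libraries up to 14 and the 2 from 15 overlapped for RGS5 and HGF, and values of the others are given by run. The share of all genes without overlap between these libraries was not worked out, so nothing particular to the 10 genes can be read from these values. PDGFRA was at 496 to 962 up to 14 and 1446 to 1658 from 15, THY1 at 804 to 1640 and 3979 to 4399, POSTN at 3973 to 13729 and 16947 to 19136, NT5E at 187 to 307 and 352 to 500, and LHX2 at 1.62 to 6.01 and 8.04 to 26.3. CSPG4 was at 3632 to 6348 up to 14 and 2184 to 2549 from 15, PDGFRB at 7659 to 12097 and 5785 to 6853, and RELN at 3176 to 3684 and 1587 to 3089. PDGFRA, THY1, POSTN, NT5E and LHX2 thus had higher values from 15 and CSPG4, PDGFRB and RELN lower ones, with no test.

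**Figure D3:**
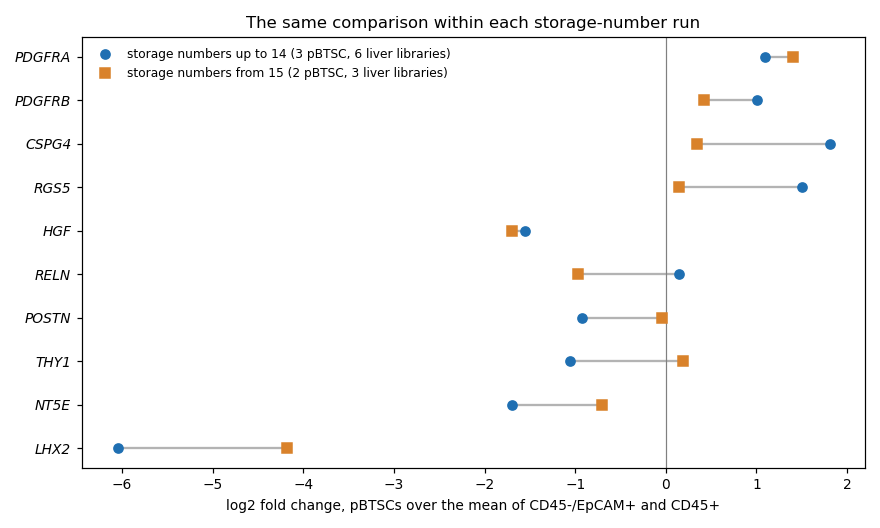
Log2 fold change of each of the 10 genes between pBTSCs and the mean of CD45-/EpCAM+ and CD45+, shown separately for storage numbers up to 14 and from 15. RGS5 was at 1.51 up to 14 and at 0.15 from 15, and LHX2 was lower in pBTSCs in each run (-6.05 and -4.18).

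Kept to the run up to 14, pBTSCs differed from the mean of the liver sorts present by log2 fold changes of 2.55 for CSPG4, 2.15 for RGS5, 1.54 for PDGFRA, 1.46 for PDGFRB, -1.39 for HGF, -1.76 for NT5E and -5.95 for LHX2, and all 7 passed, where 30.9% of all genes did. Kept to the run from 15, PDGFRA (1.59, adjusted p = 0.0216) and LHX2 (-3.90, adjusted p = 0.00664) passed, where 15.8% of all genes did. In that run PDGFRB was at 0.47, CSPG4 at 0.21, RGS5 at 0.19, HGF at -1.41 (adjusted p = 0.0908) and NT5E at -0.66 (adjusted p = 0.0275), none of which passed. RELN was at 0.52 (adjusted p = 0.0710) up to 14 and -0.99 (adjusted p = 0.0263) from 15. With the run as a term in the fit of all libraries, 7 members passed, where 27.5% of all genes did. The storage numbers can also be cut into 5 sets of consecutive numbers that each open with a pBTSC library, and the labels do not say what a set shares. With these sets as a block, chosen after seeing the data, the same 7 members passed, where 28.3% of all genes did, with PDGFRA at 1.65, CSPG4 at 1.45, RGS5 at 1.35, PDGFRB at 1.04, NT5E at -1.23, HGF at -1.28 and LHX2 at -4.90. The difference between the runs was tested with CD45-/EpCAM+ and CD45+, the sorts present in both. From 15 these sorts hold 1 and 2 libraries, and the 2 pBTSC libraries include the shallow S15. With so few libraries, a missing call does not show that the runs are alike. No member passed, against 1.07% of all genes, and the lowest adjusted values among the members were those of RELN (-1.11, SE 0.34, adjusted p = 0.168), CSPG4 (-1.46, SE 0.53, adjusted p = 0.234) and RGS5 (-1.36, SE 0.52, adjusted p = 0.259).

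Further markers of the same cells did not move as a block in pBTSCs. Of 12 stellate cell markers with a row, 5 were higher in pBTSCs than in the mean of the liver sorts, 4 were lower and 3 did not pass (median log2 fold change 0.37). For this and the lists that follow, the share of all genes is 16.1% higher and 10.5% lower and their median is 0.11. LRAT, the enzyme that esterifies retinol for storage, was at 2.14 to 13.2 normalized counts in pBTSCs, the highest of them in the shallow S15 and under 3 reads, and at 176 to 1323 in the liver (log2 fold change -6.71). The collectins COLEC10 (-5.11) and COLEC11 (-4.22) and the matrix protein ECM1 (-2.31) were lower as well. DCN, which encodes the proteoglycan decorin and is shared with fibroblasts, was at 4711 to 29237 in pBTSCs and 469 to 1410 in the liver (3.73), and the filament genes GFAP (3.42), DES (2.81) and VIM (1.75) and the globin CYGB (1.32) were higher. GFAP is also a gene of glia, and all 6 tested markers of Schwann cells and neurons were higher in pBTSCs (median 4.72), with a summed level of 2720 to 12464 against 339 to 1797 in the liver. The part of those cells in the GFAP value was not tested.

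Of 15 fibroblast markers, 14 were higher in pBTSCs and GLI1 (-0.90) did not pass (median 2.65). LUM, which encodes lumican, was at 2514 to 22905 normalized counts in pBTSCs and 32.5 to 247 in the liver (6.54). DPT (3.86), COL1A1 (3.57) and COL1A2 (3.47), genes of the extracellular matrix, followed. The summed level of the list was 379277 to 1680798 in pBTSCs and 31390 to 167230 in the liver, without overlap. By single sort, from 10 of the 15 (CD31+) to 14 (CD45-/EpCAM+ and CD45-/EpCAM-) were higher, where 6.73%, 14.8% and 20% of all genes were. Of 9 markers of pericytes and other mural cells, 4 were higher, 1 was lower and 4 did not pass (median 0.88), with HIGD1B (3.23), CD248 (2.07), COX4I2 (1.72) and NOTCH3 (1.44) higher and ANPEP (-2.11) lower. Their summed level was 19567 to 30929 in pBTSCs and 8261 to 22602 in the liver. By single sort, 7 of the 9 were higher against CD45-/EpCAM- and 4 against CD45-/EpCAM+, where 20% and 14.8% of all genes were. Only 2 were higher against each of CD45+, CD31+ and CD146+, where 11%, 6.73% and 14.5% of all genes were. Of 5 smooth muscle markers with a row, 4 were higher (median 1.62), among them CNN1 (1.98) and ACTA2 (1.53), with a summed level of 73061 to 177804 against 13405 to 93720. The 4 called smooth muscle genes and 4 of the 9 mural genes were higher in pBTSCs, as PDGFRB, CSPG4 and RGS5 were, and the part of smooth muscle in those values was not tested. In the run from 15 alone, where 15.8% of all genes passed, 2 pericyte markers passed, 1 in each direction, and 1 smooth muscle marker.

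**Figure D4:**
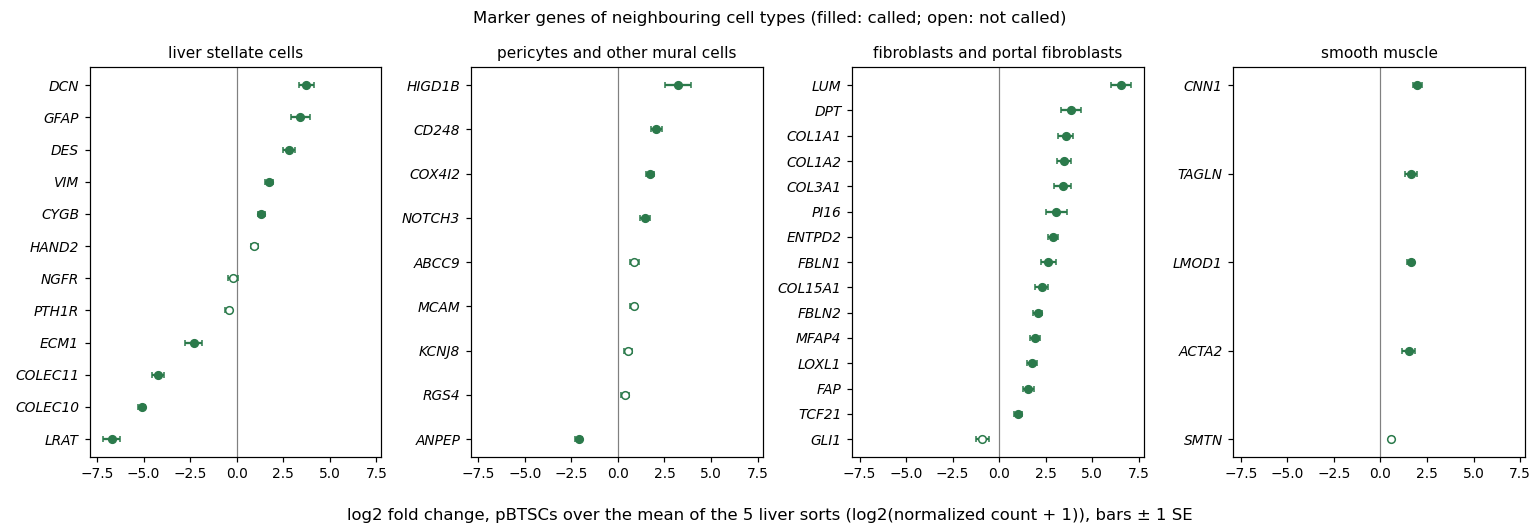
Log2 fold change of each tested marker gene between pBTSCs and the mean of the 5 liver sorts, with SE bars. The lists shown are liver stellate cells, pericytes and other mural cells, fibroblasts and portal fibroblasts, and smooth muscle. Stellate cell markers ran from -6.71 (LRAT) to 3.73 (DCN) and fibroblast markers from -0.90 (GLI1) to 6.54 (LUM).

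All 7 hepatocyte markers were lower in pBTSCs (median -8.32), and their summed level was 25981 to 68900 in pBTSCs against 928130 to 2673778 in the liver. Endothelial markers split, with VWF (2.30) and PECAM1 (1.07) higher in pBTSCs, STAB2 (-7.19) and LYVE1 (-1.63), genes of the liver sinusoid, lower, and 4 of 8 not passing (median -0.30; summed level 76991 to 98325 against 23600 to 136180). Of 7 leukocyte markers 4 were higher and 2 lower (median 1.84). The T cell genes CD2 (2.30) and CD3E (1.84), the B cell gene CD79B (2.33) and the lysozyme gene LYZ (2.09) were higher. CD68 (-3.18) and CD163 (-3.23), genes of macrophages, were lower, and PTPRC (-0.56) did not pass. The summed level of the leukocyte list was 2447 to 5490 in pBTSCs against 11317 to 58925. By single sort, 0 of the 7 were higher against CD45-/EpCAM- (median -0.89), where 20% of all genes were. Against CD146+ 4 were higher (median 3.30), where 14.5% of all genes were, and 2 were lower against each sort. Of 6 biliary and other epithelial markers with a row, CDH1 (-1.21) was lower and 5 did not pass (median -0.12; 11735 to 27684 against 10714 to 37948). Of the 2 mesothelial markers tested, WT1 (3.21) was higher and UPK3B (-2.74) lower (median 0.24; 74.7 to 232 against 39.9 to 90.1), and LRRN4 was at 0 in all pBTSC libraries. The 7 hepatocyte genes were lower in pBTSCs, as LHX2, HGF and NT5E were, and the part of hepatocytes in those values was not tested.

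The partners of the 10 genes were taken from lists fixed by pathway. Of the 4 PDGF ligand genes, PDGFA (1.57) and PDGFD (1.22) were higher in pBTSCs, and PDGFB (0.84) and PDGFC (-0.16) did not pass (median 1.03). Of 7 genes of the HGF and MET axis, 3 were higher, 1 was lower and 3 did not pass (median 0.50). HGFAC, the protease that activates HGF and is made by hepatocytes, was at 9.05 to 249 normalized counts in pBTSCs and 3313 to 13872 in the liver (-7.75). The proteases PLAU (1.21), PLAT (1.08) and ST14 (1.02) were higher, and the receptor MET was at -0.47 and did not pass. For reelin, the receptors VLDLR (1.11) and LRP8 (2.23) were higher and the adaptor DAB1 (-2.11) was lower (median 1.11). In the adenosine pathway, ENTPD1 (1.55), the enzyme that supplies AMP to CD73, was higher, the receptor ADORA3 (-2.65) was lower and 4 of 6 genes did not pass (median -0.40). None of the 4 integrin genes that encode partners of periostin and THY1 passed (0.43 to 0.65, median 0.51).

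The profile of each member but HGF over the 13 deep liver libraries was compared with that of 12181 genes by Pearson's r. The values are a description only, since donors were not given and differences between sorts or runs enter each r. RGS5, for one, did not overlap between the runs in the liver. The genes named are those of the highest r among all genes compared. CSPG4 was most like ZBTB7C (0.992), ITGA7 (0.991) and NOTCH3 (0.989), RGS5 like CX3CL1 (0.996) and CYYR1 (0.996), and PDGFRB like THBS1 (0.977) and EGR2 (0.974). PDGFRA was most like ADGRD1 (0.982), RELN like COL6A6 (0.974), POSTN like TNIP1 (0.947), THY1 like SCIMP (0.986), NT5E like LIPA (0.955) and LHX2 like VPS36 (0.962). Among the members, PDGFRA went with RGS5 (0.940) and RELN (0.909) and PDGFRB with CSPG4 (0.893), while PDGFRB and NT5E went in opposite directions (-0.589).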

How the data were processed

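Bulk RNA-seq of 20 libraries was analysed. The deposited values are a signal: normalized counts, that is, gene counts that the authors divided by a size factor of each library. The submitters' processing notes name STAR, Salmon and DESeq2, and versions, genome build and annotation are not given in the sources used here. According to the methods, libraries were made from poly(A) RNA with a stranded kit. Whole reads could not be recovered for nearly all values (56.2 to 81.7% of low values per library lay within 0.05 reads of a whole number), so no count test was run. Values were compared with limma 3.58.1 in R 4.3.3 on log2(normalized count + 1), with 1 fit over all 20 libraries and 6 groups, a mean-variance trend, and Benjamini-Hochberg adjustment across 15576 genes, those for which 2 or more libraries held 10 normalized counts or more. Fold changes are on that scale, which understates changes of low genes. Calls required an adjusted p under 0.05 together with an absolute log2 fold change over 1. Summaries and figures were made with Python 3.11.15, pandas 2.3.3, numpy 2.4.6 and matplotlib 3.10.9. The fit was tested on simulated data.

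The 10 genes and the marker and pathway lists (15 lists, 108 genes, 102 with a row) were chosen with earlier results of these data known. The rule named all 10 genes, up to 4 called genes of the largest change per list, any gene of a list under 8 genes, and for likeness the genes of highest Pearson's r. The likeness of HGF is not reported here. ECM1, GFAP, DES, VIM, CYGB, NOTCH3 and GLI1 were named after their values were seen. In the table, 5561 genes were at 0 everywhere and 7782 had no name. Levels are not per length, so they were not compared between genes. Replicates were numbered in accession order, and donors of the liver sorts were not given, so p-values measure the spread between these libraries, part of which may be technical. Replicates differed by at least 1.69 times the counting noise, the lowest ratio being that of a pair with the shallow S15. Estimated depths cover counting error only. Alternatives covered the pseudocount, scaling, filter, libraries, run and weights. The fits of the difference between runs, of the run among liver libraries and of the storage number sets as a block were added after seeing the data.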

Additional observations from a re-analysis of the deposited data

Results flagged for a closer look

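In 30 groups of 4 or 5 libraries (10 genes in pBTSCs, CD45-/EpCAM+ and CD45+), 6 had a library whose gap to the nearest of the others was larger than Dixon's limit, where chance gives about 1 in 20. In pBTSCs these were RELN in S20, at 1587 normalized counts against 3089 to 3684 in the others, and LHX2 in the shallow library S15, at 26.3 against 1.62 to 8.04. In CD45-/EpCAM+ they were RGS5 in S19, at 16208 against 3419 to 4126, and, in the shallow library S13, PDGFRB at 3234 against 4587 to 4864 and NT5E at 1028 against 657 to 709. In CD45+ it was NT5E in S12, at 1415 against 523 to 690. S19 is the only CD45-/EpCAM+ library with a storage number from 15. S12 and S13 belong to 1 set of consecutive storage numbers with the CD45-/EpCAM- library S14, where NT5E was at 1070.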

How the results depend on the processing

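Of the fold changes of the 10 genes over all alternatives, 2364 kept direction and side of the threshold, 116 no longer passed, 48 newly passed and 52 changed direction. Of the counts of list genes called, 459 stayed within 1.5 times the main count and 21 did not. The cause of these changes was not tested. PDGFRA, CSPG4 and LHX2 kept their calls against the mean of the liver sorts under every alternative except that CSPG4 did not pass with storage numbers from 15 only.

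Members called between CD45-/EpCAM- and CD45-/EpCAM+ (3) became 5 with equal totals and with the run as a term, and 0 with storage numbers up to 14 only, with quality weights and with only the groups compared. Members called against CD146+ (3) became 1 with no filter, from 15 only, with weights and with only the groups compared. From 15 only, members called became 2 against the mean of the 5 sorts (7), 1 against CD45-/EpCAM+ (6) and 1 against CD45+ (4). With single libraries left out, members called ranged from 0 to 4 between CD45-/EpCAM- and CD45-/EpCAM+, from 1 to 3 against CD146+ and against CD31+, and from 0 to 1 for CD146+ against the other sorts.

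With equal totals, RELN changed sign to 0.15 against the mean of the sorts and 0.051 against CD45+, and RGS5 to 0.27 against CD146+. RGS5 against CD146+ also became 0.075 with equal upper quartiles, 0.081 with weights and 0.63 with the run as a term. Without the shallow libraries, CD146+ against the other sorts gave HGF 0.26 and LHX2 0.011. Up to 14 only, RELN became 0.52 against the mean and 0.37 against CD45+, and POSTN -0.046 against CD45-/EpCAM-. From 15 only, THY1 and POSTN became 0.24 and 0.035 against the mean, 0.34 and 0.076 against CD45+, 0.28 and 0.066 against CD31+ and 0.33 and 0.17 against CD146+, THY1 0.030 against CD45-/EpCAM+, and RGS5 0.17 and CSPG4 -0.018 against CD146+. CD146+ against the other sorts then gave PDGFRA -0.51, PDGFRB -0.14, RELN -0.13, THY1 -0.11 and POSTN -0.17, with the run as a term PDGFRA -0.25, THY1 -0.51 and POSTN -0.14, and with the storage number sets as a block PDGFRA -0.19, THY1 -0.45 and POSTN -0.11. That block also gave 0.60 for RGS5 against CD146+.

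With single libraries left out, log2 fold changes that changed sign ranged from -0.24 to 0.59 for THY1, from -0.69 to 0.14 for LHX2 and from -0.13 to 0.49 for NT5E between CD45-/EpCAM- and CD45-/EpCAM+. Against the mean they ranged from -0.56 to 0.0057 for POSTN and from -0.27 to 0.048 for RELN. RELN against CD45+ ranged from -0.30 to 0.016, RGS5 against CD31+ from -0.15 to 0.37, RGS5 against CD146+ from -0.31 to 0.30 and HGF against CD146+ from -1.71 to 0.47. For CD146+ against the other sorts the ranges were -0.30 to 0.89 for PDGFRA, -0.15 to 0.52 for PDGFRB, -0.093 to 0.49 for THY1, -0.16 to 0.58 for POSTN and -1.96 to 0.22 for HGF.

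All genes called between CD45-/EpCAM- and CD45-/EpCAM+ (436) became 718 with equal totals, 879 without the shallow libraries, 39 with weights, 0 up to 14 only and 0 with only the groups compared, and ranged from 0 to 1478 with single libraries left out. Against CD146+ (3462) they became 1554 without the shallow libraries, 2030 from 15 only and 1683 with weights, and fell as low as 1152 with single libraries left out. From 15 only they became 2357 against the mean (4145), 1322 against CD45-/EpCAM+ (3905) and 1860 against CD45+ (3202). Against CD31+ (2236) they became 3804 with weights and as few as 1018, and against CD45-/EpCAM- (5698) as few as 3390, with single libraries left out. For CD146+ against the other sorts (0) they became 1 with a pseudocount of 0.1 and up to 2295 with single libraries left out.

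The median log2 fold change of all genes against the mean was 0.11, 0.43 with equal totals and 0.19 with equal upper quartiles. With equal totals the share of calls that were higher went from 60.4 to 74% against the mean, 59 to 72.8% against CD45-/EpCAM+, 54.7 to 75.5% against CD45-/EpCAM-, 53.6 to 67.1% against CD45+, 46.9 to 61.9% against CD31+, 65.1 to 76.2% against CD146+ and 27.5 to 14.9% between CD45-/EpCAM- and CD45-/EpCAM+. No paired analysis was possible because replicate numbers were given in accession order and donors of the liver sorts were not given. The storage number sets stand in for no donor, and as a block they ended the RELN call (0.94) against CD45-/EpCAM-, the NT5E call (-0.90) against CD146+ and the RELN call (-1.30) between CD45-/EpCAM- and CD45-/EpCAM+. Depth limits LHX2 in S15 and S22, and the spread within CD45-/EpCAM-, CD31+ and CD146+ is read from 2 libraries each.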
